A study of Danio rerio with 17 samples.

Results

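The genes described here are brca2 and the genes that work with it: 39 genes of homologous recombination, of the DNA damage checkpoint and of the Fanconi anaemia pathway, listed by symbol and chosen for their function. Rows of the count table were matched to the list by symbol without regard to capitals, and MRE11 (ENSDARG00000105014) was matched from the listed mre11a after its paralogue letter was dropped. Of the 39 listed genes, 37 matched 1 each of the 31701 gene IDs in the table, and fanca and gen1 were not analysed here. All 37 passed the filter on low counts that left 23299 genes to be tested, and 30 to 37 of them had at least 10 counts in each library. Symbols are printed as the reference table lists them, some in the capitals of human genes.

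Homologous recombination repairs breaks that cut both DNA strands by copying the intact sister molecule, and it is used mainly by dividing cells that have replicated their DNA. Nucleases trim the broken ends, Brca2 loads the recombinase onto the exposed strand with the help of the recombinase paralogues, and the resulting filament invades the sister. Fanconi proteins act where replication meets crosslinked DNA: a core complex attaches ubiquitin to the Fancd2 and Fanci clamp, which brings in nucleases and hands the break to recombination. The roles given below are those known mainly from human cells and yeast.

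RNA with poly(A) tails was sequenced from cells sorted out of dissociated eye tissue of adult zebrafish, in a study of a model of malignant peripheral nerve sheath tumours. The sort used a red fluorescent reporter driven by the promoter of sox10, a transcription factor gene of the neural crest and its glia, so that High and Low stand for the reporter level and not for a purified cell type. Cancer_High and Cancer_Low (n = 4 each) came from tg(sox10:RFP) fish homozygous for the brca2 allele hg5 with cancer, aged 7.5, 8.1, 8.1 and 10.4 months. PreC_High and PreC_Low (n = 3 each) came from fish of the same genotype labelled as precancerous, aged 4.5, 4.5 and 4.7 months. Control_Low (n = 3) came from fish for which the labels give the reporter tg(sox10:RFP) alone, aged 4.6, 5.0 and 5.0 months, and there was no sox10-high library of control fish. Each High library shares its tissue with the Low library of the same number. Within each group the replicates carry different tissue codes, and not all are of the same age. Whether each tissue came from a different animal is not in the labels, so the p-values speak of the spread among these tissue samples.

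Library totals were 58711787 to 87244522 counts. Among counts of 20 to 100, 60.8 to 77.8% were even numbers in the Control and PreC libraries, against 51.2 to 53.9% in the Cancer libraries, which also carry a separate run of library indexes (10 to 17). Tumour stage, age and this difference in counting cannot be told apart. SOX10 followed the sort, at 748 to 1597 CPM (counts of a gene relative to the scaled total of its library) in the High libraries and 9.76 to 69.1 CPM in all Low libraries except Cancer_Low 4, where it reached 418 CPM. PreC_Low 3 stood apart, with 1110.0 CPM of RAG1 and 1019.9 CPM of RAG2, the recombination activating genes of developing lymphocytes, against 29.7 and 36.5 CPM in PreC_High 3 of the same tissue and at most 1.25 CPM of either gene in the other 15 libraries. For the 37 genes, some results that rest on these libraries are given with and without them. The differences of single genes of the 37 between PreC_Low and Control_Low are given with PreC_Low 3 only. For other genes only some are given without PreC_Low 3, and none without Cancer_Low 4.

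brca2 (ENSDARG00000079015), the gene mutated in the Cancer and PreC fish, was transcribed in every library, with at least 405 counts. Its level was 12.7, 9.89, 9.14 and 9.3 CPM in Cancer_High, 17.8, 21, 24.1 and 9.13 CPM in Cancer_Low, 13.1, 9.9 and 17.9 CPM in PreC_High, 14.1, 8.19 and 21.8 CPM in PreC_Low and 7.38, 6.15 and 6.05 CPM in Control_Low. Each of the 14 mutant libraries lay above each of the 3 control libraries. Counts per gene do not show a base change and say nothing of the protein, so the genotypes rest on the labels.

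The group means of brca2 ran from Cancer_Low (18 ± 6.46 CPM, mean ± SD) through PreC_Low (14.7 ± 6.84), PreC_High (13.6 ± 4.01) and Cancer_High (10.2 ± 1.64) down to Control_Low (6.53 ± 0.738). Of the differences tested between groups, 1 passed: brca2 rose in Cancer_Low over Control_Low, with a log2 fold change of 1.47 ± 0.39 (± SE; edgeR quasi-likelihood test, Benjamini-Hochberg adjusted p = 0.0088), and the call was kept without any 1 of the 17 libraries. The difference of PreC_Low from Control_Low was 1.17 ± 0.41 (adjusted p = 0.163) and missed the threshold of 0.05, as did that of Cancer_Low from PreC_Low, 0.29 ± 0.38 (adjusted p = 0.64). Within tumours, 3 of the 4 Cancer_Low libraries lay above all Cancer_High libraries and Cancer_Low 4 just below them. In the fit with no block for the tissue, the High against Low difference of -0.82 ± 0.35 missed the threshold (adjusted p = 0.0919). It passed without Cancer_Low 4, the library with raised SOX10, at -1.03 ± 0.33 (adjusted p = 0.0223), and under DESeq2 at -0.90 ± 0.34 (adjusted p = 0.0266). Over all comparisons and settings tried, brca2 gained a call in only 3 fits, these included. Under limma voom with the tissue as a random effect, the brca2 difference between the tumour fractions missed the threshold. The differences of PreC_High from PreC_Low (-0.11 ± 0.40, adjusted p = 0.864) and of Cancer_High from PreC_High (-0.41 ± 0.37, adjusted p = 0.535) missed it too, and the sign between the PreC fractions turned to 0.29 ± 0.42 without PreC_Low 3.

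**Figure D1:**
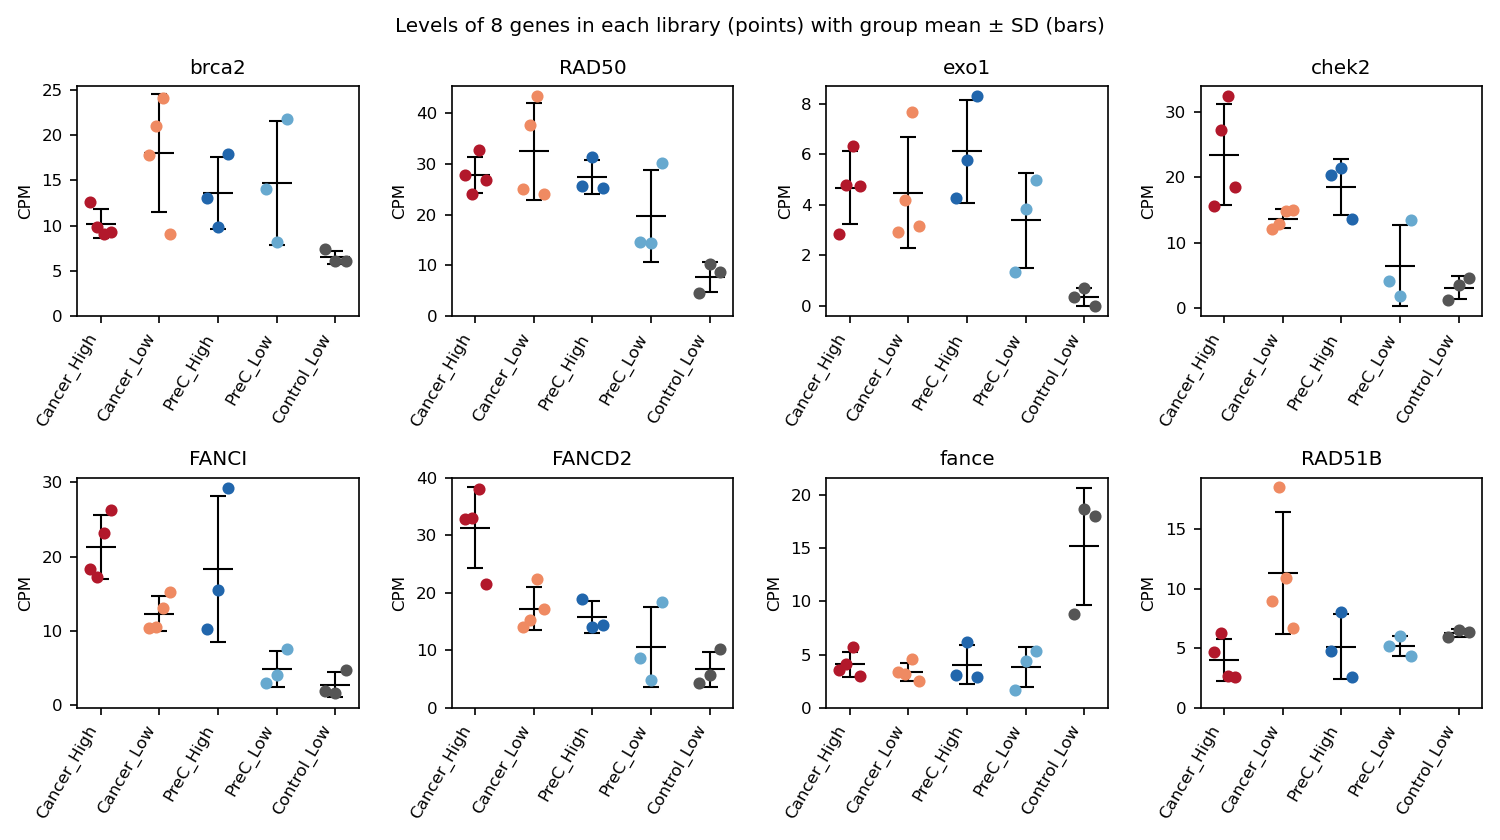
Levels in CPM (vertical axes, linear) of 8 genes in each of the 17 libraries, grouped along the horizontal axis; points are libraries, and bars are group means ± SD (n = 4 for the Cancer groups, n = 3 for the others). All 14 mutant points of brca2, RAD50 and exo1 lie above the 3 Control_Low points, all 14 of fance lie below them, and RAD51B is highest in Cancer_Low.

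The comparison with the most calls was that between the sox10-low cells of tumours and those of control eyes. Of the 37 genes, 9 rose in Cancer_Low over Control_Low (brca2, RAD50, exo1, chek2, FANCC, FANCL, FANCD2, FANCI and mus81), where 17.2% of all tested genes rose, and 1 fell (fance), where 15.5% of all tested genes fell. The log2 fold change was positive for 35 of the 37, with a median of 1.29, against a median of 0.16 over all tested genes. The other genes are described beside these by role, each with its range over the libraries of a group. In bulk samples such as these, fewer cells of a type and less RNA per cell cannot be told apart.

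The genes palb2, BARD1 and BRIP1, grouped here with brca2, had a higher mean in each mutant group than in Control_Low. None of them passed the test in this comparison. Of the mutant Low libraries, only Cancer_Low 3 and PreC_Low 3 exceeded all controls for palb2, at 7.14 and 23.2 CPM. palb2, whose product bridges Brca1 and Brca2, ranged over 5.85 to 13.1 in Cancer_High, 3.64 to 7.14 in Cancer_Low, 6.89 to 14 in PreC_High, 0.718 to 23.2 in PreC_Low and 1.07 to 5.03 CPM in Control_Low. BARD1, the partner of Brca1 in a ubiquitin ligase, ranged over 1.69 to 8.62 in Cancer_High, 1.7 to 4.91 in Cancer_Low, 0.862 to 5.04 in PreC_High, 0.197 to 2.77 in PreC_Low and 0.494 to 0.762 CPM in Control_Low. BRIP1, a helicase that binds Brca1, ranged over 6.83 to 8.69 in Cancer_High, 5.11 to 10.7 in Cancer_Low, 8.48 to 11.4 in PreC_High, 4.11 to 12.2 in PreC_Low and 1.65 to 5.68 CPM in Control_Low. For each of these genes the lowest mutant library lay below the highest control library. The log2 differences of Cancer_Low from Control_Low were 0.71 ± 0.84 for palb2, 2.20 ± 0.86 for BARD1 and 0.82 ± 0.47 for BRIP1. Only for BARD1 did all 4 Cancer_Low libraries exceed the controls.

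The paralogues of the recombinase, which help to build and hold its filament, had differences of 0.52 to 2.91 between Cancer_Low and Control_Low, and none of the 5 was called. RAD51B levels were 4.69, 6.27, 2.67 and 2.59 CPM in Cancer_High, 8.99, 18.5, 10.9 and 6.72 CPM in Cancer_Low, 4.78, 8.04 and 2.57 CPM in PreC_High, 5.16, 6.03 and 4.36 CPM in PreC_Low and 5.92, 6.55 and 6.33 CPM in Control_Low. All 4 Cancer_Low libraries stood above all 4 of the Cancer_High libraries, and all 3 controls, while the Cancer_High, PreC and control ranges overlapped. RAD51C ranged over 1.998 to 4.28 in Cancer_High, 2.91 to 5.66 in Cancer_Low, 2.43 to 3.23 in PreC_High, 2.73 to 7.06 in PreC_Low and 0.783 to 2.25 CPM in Control_Low. rad51d ranged over 5.19 to 7.87 in Cancer_High, 2.56 to 5.03 in Cancer_Low, 4.53 to 7.4 in PreC_High, 0 to 6.42 in PreC_Low and 0.437 to 1.96 CPM in Control_Low. In both genes Cancer_Low lay above the controls, and in rad51d PreC_Low held a library with 0 counts. XRCC2 was scarce, at 0.603 to 2.64 in Cancer_High, 0.313 to 0.651 in Cancer_Low, 1.1 to 2.21 in PreC_High, 0 to 0.884 in PreC_Low and 0 to 0.201 CPM in Control_Low, with 0 counts in PreC_Low 1 and 2 and in Control_Low 1 and 3. XRCC3 ranged over 6.14 to 13.1 in Cancer_High, 4.65 to 7.25 in Cancer_Low, 8.62 to 13.4 in PreC_High, 3.1 to 8.83 in PreC_Low and 1.87 to 5.54 CPM in Control_Low, so that its control range overlapped that of every mutant group except Cancer_High and PreC_High.

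Of the genes for strand exchange, RAD52, an annealing protein, ranged over 6.22 to 10.2 in Cancer_High, 2.7 to 6.39 in Cancer_Low, 2.41 to 6.67 in PreC_High, 0.0574 to 4.17 in PreC_Low and 0.977 to 1.73 CPM in Control_Low. RAD54L, a motor protein that helps the filament invade, ranged over 10.6 to 15.9 in Cancer_High, 5.38 to 12.5 in Cancer_Low, 10.2 to 15 in PreC_High, 1.6 to 10.3 in PreC_Low and 2.44 to 4.97 CPM in Control_Low. RAD54B, its relative, ranged over 4.17 to 5.33 in Cancer_High, 2.49 to 5.24 in Cancer_Low, 3.36 to 4.31 in PreC_High, 3.96 to 8.96 in PreC_Low and 0.848 to 3.995 CPM in Control_Low. The Cancer and PreC_High libraries of RAD52 and RAD54L lay above all controls, whereas RAD54B overlapped them in Cancer_Low, PreC_High and PreC_Low. DMC1, the recombinase of meiosis, was near 0 throughout: it had 0 to 46 counts per library, and the highest level was 0.535 CPM, in PreC_Low 3. No fold change is given for it.

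Of the 6 genes for break sensing and trimming, RAD50 and exo1 rose in Cancer_Low over Control_Low. RAD50 (ENSDARG00000038917), the arm of the complex that binds broken ends, had 27.8, 24, 32.7 and 26.7 CPM in Cancer_High, 25, 37.6, 43.4 and 24 CPM in Cancer_Low, 25.7, 31.3 and 25.3 CPM in PreC_High, 14.6, 14.5 and 30.1 CPM in PreC_Low and 4.55, 10.2 and 8.64 CPM in Control_Low. The lowest mutant library exceeded the highest control library, and the log2 fold change of Cancer_Low over Control_Low was 2.06 ± 0.36 (adjusted p = 0.000433).
exo1 (ENSDARG00000056832), an exonuclease that lengthens the trimmed stretch, had 2.82, 4.79, 6.33 and 4.76 CPM in Cancer_High, 2.91, 4.19, 7.67 and 3.16 CPM in Cancer_Low, 4.26, 5.78 and 8.29 CPM in PreC_High, 1.32, 3.85 and 4.97 CPM in PreC_Low and 0.364, 0.718 and 0 CPM in Control_Low. Its groups of mutant and control libraries did not overlap either, and the log2 fold change was 3.63 ± 0.97 (adjusted p = 0.00873).
MRE11, the nuclease of the same complex as RAD50, ranged over 11.8 to 61.1 in Cancer_High, 11.4 to 16.5 in Cancer_Low, 18.9 to 20.9 in PreC_High, 7.27 to 17.4 in PreC_Low and 6.47 to 7.05 CPM in Control_Low, again with every mutant library above the controls, but its difference of 1.05 ± 0.48 missed the threshold (adjusted p = 0.103). The third subunit, nbn, ranged over 10.1 to 17.9 in Cancer_High, 9.46 to 15.5 in Cancer_Low, 9.92 to 14.2 in PreC_High, 11.7 to 14.8 in PreC_Low and 8.51 to 12.8 CPM in Control_Low. RBBP8, which starts the trimming, ranged over 7.01 to 9.51 in Cancer_High, 3.73 to 7.02 in Cancer_Low, 4.64 to 11.6 in PreC_High, 4.11 to 11 in PreC_Low and 2.33 to 4.92 CPM in Control_Low. Cancer_Low and PreC_Low overlapped the controls in both genes. For blm, a helicase that unwinds and dissolves joined molecules, the levels were 5.41 to 16.5 in Cancer_High, 6.2 to 11.5 in Cancer_Low, 7.11 to 10.7 in PreC_High, 7.29 to 9.81 in PreC_Low and 10.5 to 11.1 CPM in Control_Low. PreC_Low lay below the controls, as did Cancer_Low 1, 2 and 4, at 6.2, 6.46 and 7.84 CPM, while Cancer_Low 3 lay above them.

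Among the checkpoint genes, chek2 (ENSDARG00000025820), the kinase that relays the signal of broken DNA, had 15.7, 27.3, 32.4 and 18.5 CPM in Cancer_High, 12.1, 12.8, 14.8 and 15 CPM in Cancer_Low, 20.4, 21.4 and 13.6 CPM in PreC_High, 4.09, 1.87 and 13.5 CPM in PreC_Low and 1.17, 3.58 and 4.6 CPM in Control_Low. All Cancer and PreC_High libraries lay above the controls, whereas PreC_Low 1 and 2 lay within the control range. In Cancer_Low over Control_Low chek2 rose by 2.13 ± 0.58 on the log2 scale (adjusted p = 0.00964). The signalling kinases upstream differed less: ATM ranged over 24.6 to 37.8 in Cancer_High, 31.3 to 69.2 in Cancer_Low, 35.3 to 39.7 in PreC_High, 42.4 to 75.3 in PreC_Low and 25 to 38.1 CPM in Control_Low. ATR ranged over 14.5 to 25.6 in Cancer_High, 11.8 to 26.8 in Cancer_Low, 18.7 to 24 in PreC_High, 17.2 to 34.5 in PreC_Low and 12.5 to 16.4 CPM in Control_Low. Both had their highest library in PreC_Low, and their Cancer_Low ranges overlapped those of the controls. CHEK1, the kinase that acts below ATR, ranged over 2.03 to 8.48 in Cancer_High, 1.84 to 5.28 in Cancer_Low, 4.67 to 7.42 in PreC_High, 1.85 to 4.97 in PreC_Low and 0.659 to 2.41 CPM in Control_Low. TOPBP1, which activates ATR, ranged over 19.1 to 35.4 in Cancer_High, 13.1 to 26.6 in Cancer_Low, 19.7 to 27.8 in PreC_High, 11.3 to 19.9 in PreC_Low and 9.64 to 12.1 CPM in Control_Low. None of ATM, ATR, CHEK1 and TOPBP1 was called, with differences of 0.37 to 1.29 between Cancer_Low and Control_Low.

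In the Fanconi core complex, fance (ENSDARG00000068870), the subunit that contacts Fancd2, was lower in mutant libraries. It had 3.57, 4.15, 5.69 and 2.98 CPM in Cancer_High, 3.33, 3.14, 4.56 and 2.48 CPM in Cancer_Low, 3.11, 6.19 and 2.86 CPM in PreC_High, 1.71, 4.42 and 5.38 CPM in PreC_Low and 8.84, 18.7 and 18.1 CPM in Control_Low. No mutant library reached the lowest control library, and fance fell in Cancer_Low against Control_Low, with a log2 difference of -2.17 ± 0.47 (adjusted p = 0.00222).
FANCL, the ubiquitin ligase subunit, had 4.84, 5.67, 3.36 and 2.71 CPM in Cancer_High, 2.3, 3.44, 5.33 and 2.69 CPM in Cancer_Low, 5.11, 1.87 and 5.3 CPM in PreC_High, 0.433, 1.48 and 3.74 CPM in PreC_Low and 0.219, 1.02 and 0.563 CPM in Control_Low, and rose in Cancer_Low by 2.51 ± 0.75 (adjusted p = 0.017). FANCC, a structural subunit, had 1.45, 2.68, 1.92 and 1.61 CPM in Cancer_High, 3.16, 3.33, 4.05 and 1.89 CPM in Cancer_Low, 1.27, 3.13 and 0.82 CPM in PreC_High, 1.23, 0.574 and 4.33 CPM in PreC_Low and 0.619, 0.474 and 0.851 CPM in Control_Low, and rose in Cancer_Low by 2.26 ± 0.74 (adjusted p = 0.0264). In both genes PreC_Low overlapped the controls and Cancer_Low did not.
The remaining core subunits that were matched were not called. fancb ranged over 0.663 to 6.26 in Cancer_High, 0.88 to 3.07 in Cancer_Low, 0.195 to 3.37 in PreC_High, 0.0144 to 3.1 in PreC_Low and 0 to 0.46 CPM in Control_Low. FANCF ranged over 2.53 to 5.82 in Cancer_High, 0.184 to 3.002 in Cancer_Low, 2.65 to 5.01 in PreC_High, 0 to 2.43 in PreC_Low and 0 to 0.81 CPM in Control_Low. FANCG ranged over 7.87 to 11.9 in Cancer_High, 5.64 to 6.95 in Cancer_Low, 4.77 to 14.6 in PreC_High, 4.04 to 6.69 in PreC_Low and 3.53 to 5.25 CPM in Control_Low. In fancb and FANCG all Cancer_Low libraries lay above the controls, and in FANCF they overlapped. fancm, the motor that anchors the complex to DNA, ranged over 4.66 to 11.1 in Cancer_High, 2.71 to 5.08 in Cancer_Low, 7.69 to 16.2 in PreC_High, 3.36 to 9.62 in PreC_Low and 0.802 to 2.62 CPM in Control_Low, with every mutant library above every control library and a difference of 1.05 ± 0.51 that missed the threshold (adjusted p = 0.121). fancb and FANCF were at or near 0 in some control and PreC_Low libraries, and their differences carried errors of 1.59 and 1.30 log2 units.

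The clamp that the core complex modifies is made of Fancd2 and Fanci, and both of its genes rose in Cancer_Low over Control_Low. FANCD2 (ENSDARG00000053574) had 32.8, 33, 38 and 21.5 CPM in Cancer_High, 14.1, 15.3, 22.4 and 17.3 CPM in Cancer_Low, 18.9, 14 and 14.3 CPM in PreC_High, 8.63, 4.88 and 18.4 CPM in PreC_Low and 4.3, 5.65 and 10.2 CPM in Control_Low, a log2 fold change of 1.36 ± 0.42 between Cancer_Low and Control_Low (adjusted p = 0.019). FANCI (ENSDARG00000026224) had 18.3, 17.2, 23.2 and 26.3 CPM in Cancer_High, 10.3, 10.5, 13.1 and 15.2 CPM in Cancer_Low, 10.3, 15.4 and 29.2 CPM in PreC_High, 2.89, 4.02 and 7.5 CPM in PreC_Low and 1.89, 1.57 and 4.64 CPM in Control_Low, a log2 fold change of 2.18 ± 0.48 (adjusted p = 0.00224). For both, the Cancer_Low libraries lay above the controls and mostly below Cancer_High, and PreC_Low 1 and 2 lay within the control range.

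Of the nuclease genes at the end of the pathway, mus81, the catalytic subunit of an endonuclease that cuts joined molecules, had 10.4, 6.67, 3.89 and 6.42 CPM in Cancer_High, 5.81, 5.52, 11.2 and 4.59 CPM in Cancer_Low, 4.72, 14.3 and 6.59 CPM in PreC_High, 3.9, 4.37 and 12.5 CPM in PreC_Low and 2.2, 2.04 and 2.98 CPM in Control_Low. All 14 mutant libraries exceeded the 3 controls, and the difference of Cancer_Low from Control_Low was 1.49 ± 0.55 (adjusted p = 0.0455). Its partner eme1 ranged over 2.77 to 9.17 in Cancer_High, 1.86 to 4.55 in Cancer_Low, 5.25 to 6.54 in PreC_High, 0 to 5.43 in PreC_Low and 0.328 to 1.06 CPM in Control_Low, with a difference of 2.58 ± 1.14 that missed the threshold (adjusted p = 0.0914). slx4, the scaffold that gathers these nucleases, ranged over 6.88 to 11.7 in Cancer_High, 5.53 to 13.1 in Cancer_Low, 4.51 to 9.94 in PreC_High, 7.47 to 8.57 in PreC_Low and 4.88 to 13.7 CPM in Control_Low. ERCC4, the nuclease that unhooks crosslinks, ranged over 5.98 to 22.6 in Cancer_High, 6.53 to 11.3 in Cancer_Low, 8.9 to 14 in PreC_High, 7.83 to 12 in PreC_Low and 4.37 to 8.05 CPM in Control_Low. In both, Cancer_Low and control libraries overlapped.

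**Figure D2:**
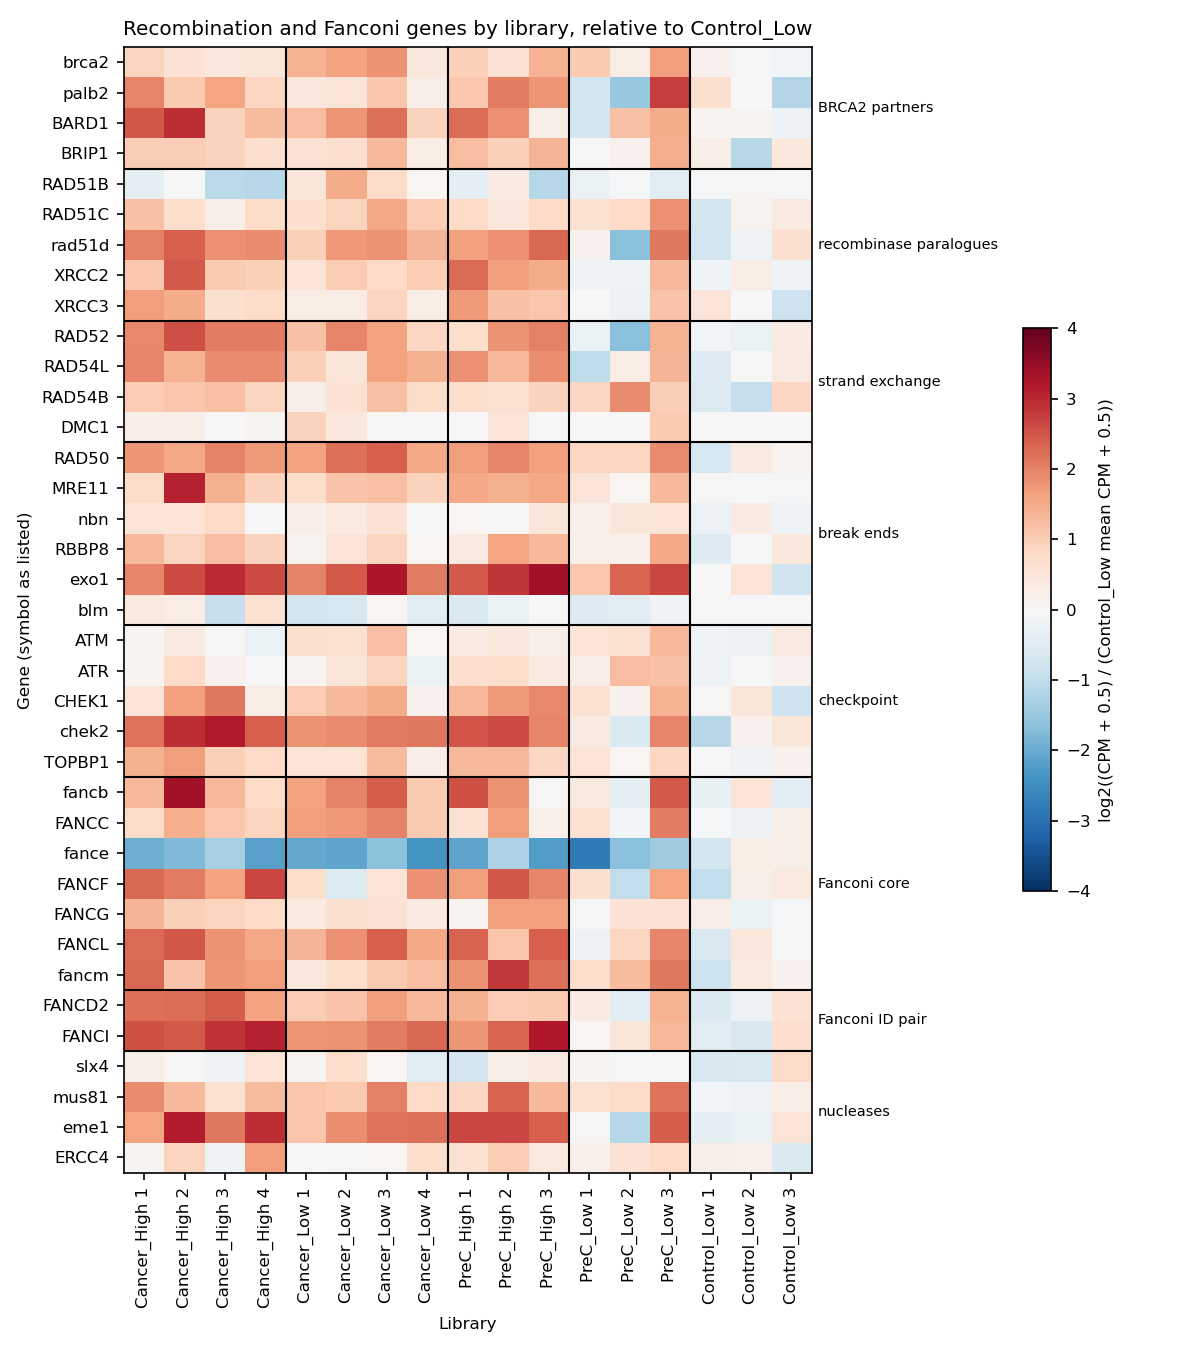
Each cell is log2 of the ratio of a library's CPM + 0.5 to the mean Control_Low CPM + 0.5, for 37 genes (rows, ordered by role) in 17 libraries (columns, grouped); red is higher and blue is lower than the control mean. Most rows are red in the Cancer_High, Cancer_Low and PreC_High columns and in PreC_Low 3, PreC_Low 1 and 2 are paler, and fance is blue in all 14 mutant columns.

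Counted over the family, 6 of the 37 genes (brca2, RAD50, MRE11, exo1, fancm and mus81) were higher in all 14 mutant libraries than in all 3 controls, where 3.36% of all tested genes were, and 1 (fance) was lower in all 14, where 5.91% of all tested genes were. The 14 mutant libraries are pairs of a High and a Low library from the same tissue, so they are not independent of each other. They mix both fractions and both stages, whereas the controls are sox10-low only, so these counts do not single out the genotype. Control_Low had the lowest group mean of the 5 groups for 34 of the 37 genes and the highest for 1. These shares were not computed over all tested genes, so they do not set the family apart. The calls of Cancer_Low against Control_Low differed in how far they rested on 1 library. Those of brca2, RAD50, exo1, chek2, FANCI and fance were kept without any 1 of the 17 libraries. The call of FANCC was lost without any 1 control library or without Cancer_Low 3, that of FANCD2 without Control_Low 1, Control_Low 2 or Cancer_Low 3, that of FANCL without Control_Low 1 or 3, and that of mus81 without any 1 of 9 libraries, the 3 controls among them. Without Control_Low 1, 5 of the 37 genes rose, where 12.2% of all tested genes rose, and 1 fell, where 12.9% fell.

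The sox10-low cells of precancerous mutants were set against the same controls, to ask whether the shift was present before a tumour. None of the 37 genes passed the edgeR test in PreC_Low against Control_Low, where 0.777% of all tested genes rose and 0.296% fell. At an unadjusted p under 0.05, 11 of the 37 were higher, where 9.91% of all tested genes were, and 1 was lower, where 5.49% were. DESeq2, which gave an adjusted p for 36 of them, called 3 higher, where 3.84% of all genes were called, and 1 lower, where 2.55% were. limma voom called 1 higher and 1 lower, where 1.22% and 2.11% of all genes were. The log2 differences were positive for 34 of the 37, with a median of 1.005 against 0.094 over all tested genes. The smallest adjusted p-values were those of fance (-1.98 ± 0.52, adjusted p = 0.073) and RAD50 (1.34 ± 0.37, adjusted p = 0.085). For 33 of the 37 genes PreC_Low 3 was the highest library of its group, a share that was not computed over all tested genes. All of the counts above include PreC_Low 3. None of the 37 passed the edgeR test when it was left out, where 58 of 23812 tested genes rose and 25 fell. Without it 25 of the 37 differences were positive, and the median was 0.31 against 0 over all tested genes (0.32 over the 35 genes other than XRCC2 and DMC1, which then had 0 counts in PreC_Low).

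**Figure D3:**
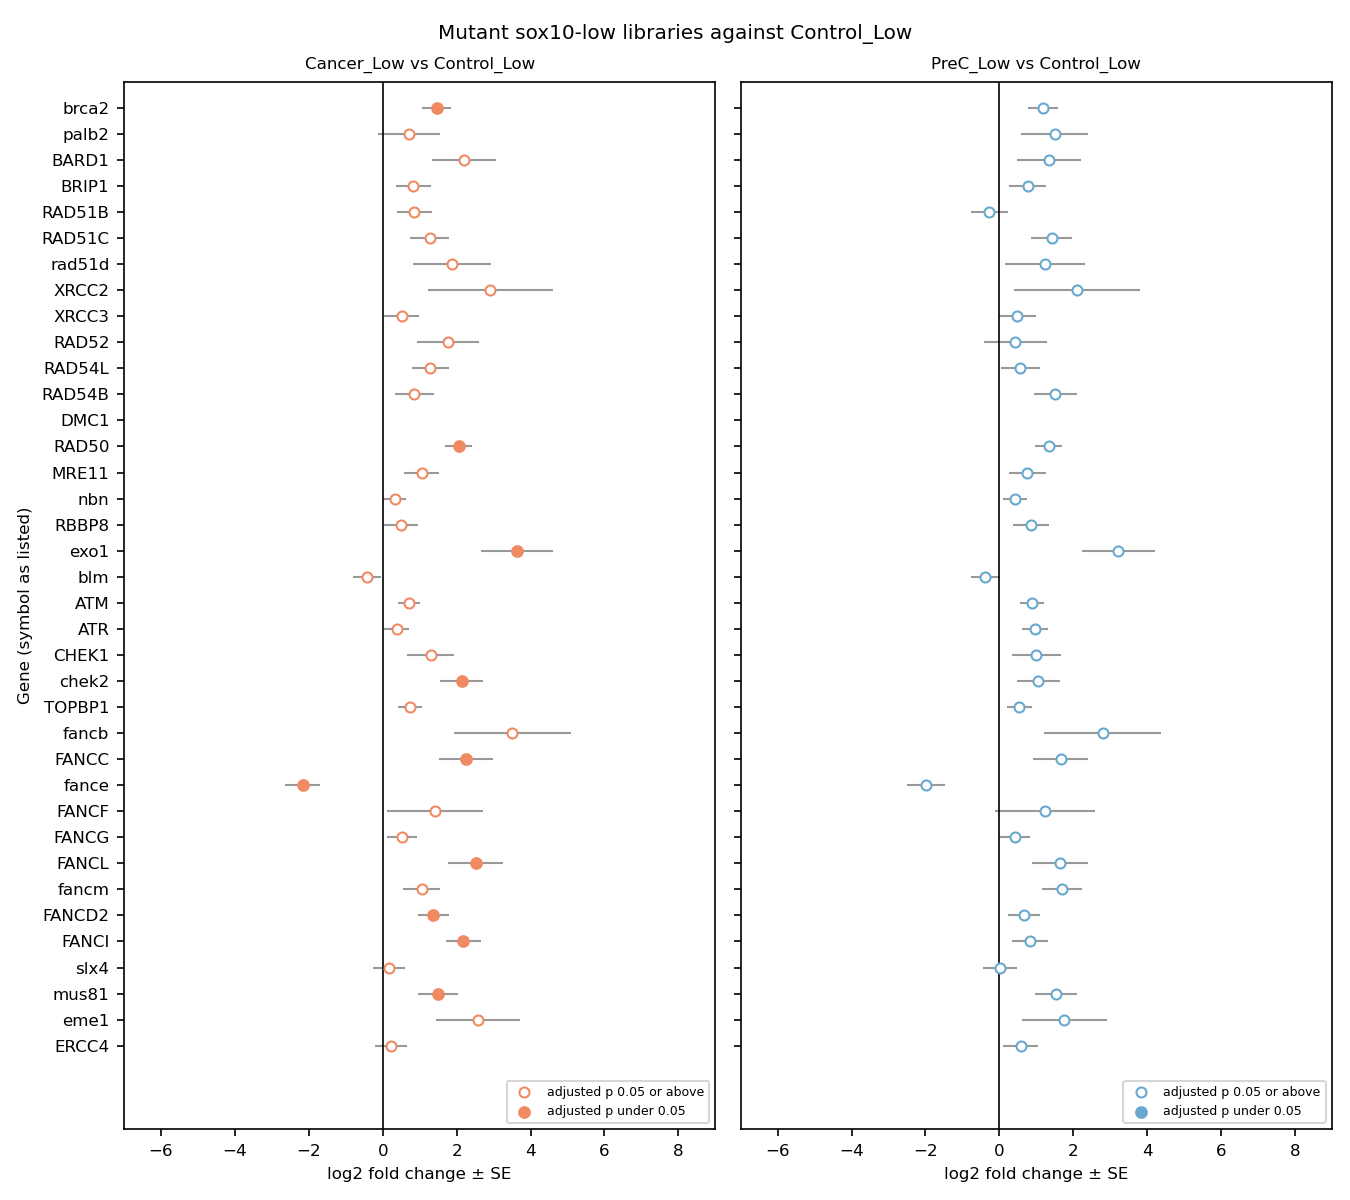
Log2 fold changes ± SE (horizontal axes) of 36 genes, all but DMC1, in Cancer_Low against Control_Low (left) and PreC_Low against Control_Low (right); filled points passed an adjusted p of 0.05. In the left panel 9 points right of 0 and fance left of 0 are filled, in the right panel none is, and both panels share the same 3 control libraries.

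Between the stages, within sox10-low cells, 1 gene rose in Cancer_Low over PreC_Low, FANCI, by 1.36 ± 0.46 on the log2 scale (adjusted p = 0.0484), where 7.95% of all tested genes rose. None of the 37 fell, where 11.1% of all tested genes fell. The count was 0 also at an unadjusted p under 0.05, where 16.9% of all tested genes were lower, and under DESeq2, where 13.9% were called lower. limma voom called 1 of the 37 higher and 0 lower, where 23.9% of all genes were called in either direction. The 4 Cancer_Low libraries of FANCI lay above the 3 of PreC_Low, but the call was lost when any 1 of 12 libraries was left out. Without PreC_Low 3, 9 of the 37 rose (palb2, XRCC2, RAD52, RAD54L, RAD50, chek2, FANCD2, FANCI and eme1), where 10.5% of 23812 tested genes rose, with chek2 at 2.20 ± 0.53 (adjusted p = 0.0088), FANCI at 1.83 ± 0.51 (adjusted p = 0.019) and RAD50 at 1.16 ± 0.35 (adjusted p = 0.0287). The count was 7 when Cancer_Low 4 was left out as well, where 22.2% of all tested genes changed in either direction. In the fit of all libraries palb2 had the opposite sign, at -0.79. Some of these calls rest on few counts in PreC_Low 1 and 2, which held 49 and 0 of eme1, 76 and 4 of RAD52 and 0 of XRCC2.

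In precancerous eyes the sox10-high libraries were compared as a group with the sox10-low libraries of the same tissues, first with no block for the tissue. FANCI rose in PreC_High over PreC_Low by 1.93 ± 0.49 (adjusted p = 0.00678), the only call among the 37, where 9.28% of all tested genes rose and 22.0% fell. At an unadjusted p under 0.05, 4 of the 37 were higher and 0 lower, where 14.8% and 27.9% of all tested genes were. DESeq2 called 4 of 36 higher and 0 lower, where 14.1% and 25.2% of all genes were called. limma voom called 9 higher and 0 lower, where 15.9% and 26.8% of all genes were. The call was kept without any 1 library, and the lowest of the 3 PreC_High libraries (10.3 CPM) exceeded the highest of PreC_Low (7.50 CPM). With the tissue as a block, 3 of the 37 rose, where 10.6% of all tested genes rose: RAD54L at 1.57 ± 0.54 (adjusted p = 0.0482), chek2 at 1.98 ± 0.63 (adjusted p = 0.0362) and FANCI at 1.91 ± 0.32 (adjusted p = 0.0017). Without PreC_Low 3, 9 of the 37 rose, where 12.7% of 23812 tested genes rose. They were palb2 at 3.23 ± 0.71, XRCC3 at 1.61 ± 0.53, RAD52 at 3.22 ± 0.91, RAD54L at 2.07 ± 0.53, chek2 at 2.63 ± 0.56, FANCD2 at 1.22 ± 0.41, FANCI at 2.41 ± 0.54, eme1 at 4.23 ± 1.25, and XRCC2, whose fold has no base because PreC_Low 1 and 2 held 0 counts. For eme1 these libraries held 49 and 0 counts, and for RAD52 76 and 4.

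Within tumours the sox10-high libraries were compared as a group with the sox10-low libraries of the same tumours. The fit had no block for the tissue, so the pairing did not enter it. RAD51B fell in Cancer_High against Cancer_Low, with a log2 difference of -1.48 ± 0.44 (adjusted p = 0.0188), where 17.9% of all tested genes fell, and none of the 37 rose, where 10.5% of all tested genes rose. At an unadjusted p under 0.05, 1 gene was higher (FANCD2), where 16.9% of all tested genes were, and 3 were lower, where 22.7% were. DESeq2, which gave an adjusted p for 35 of the 37, called 0 higher and 3 lower, where 13.7% and 23.6% of all genes were called. limma voom called 2 higher and 1 lower, where 15.2% and 20.1% were. The call of RAD51B was lost without Cancer_High 3, Cancer_High 4 or Cancer_Low 2, and was kept with the tissue as a block. The log2 differences were positive for 29 of the 37, with a median of 0.56 against 0.07 over all tested genes, and FANCD2 (0.86 ± 0.37, adjusted p = 0.0959) and ATM (-0.63 ± 0.27, adjusted p = 0.0961) came next in p to brca2. Without PreC_Low 3, which enters the shared estimate of spread, FANCD2 also rose (0.86 ± 0.31, adjusted p = 0.0479), where 2748 of 23812 tested genes rose. Without Cancer_Low 4 instead, 3 of the 37 fell, where 19.6% of all tested genes fell, and none rose, where 15.3% rose.

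**Figure D4:**
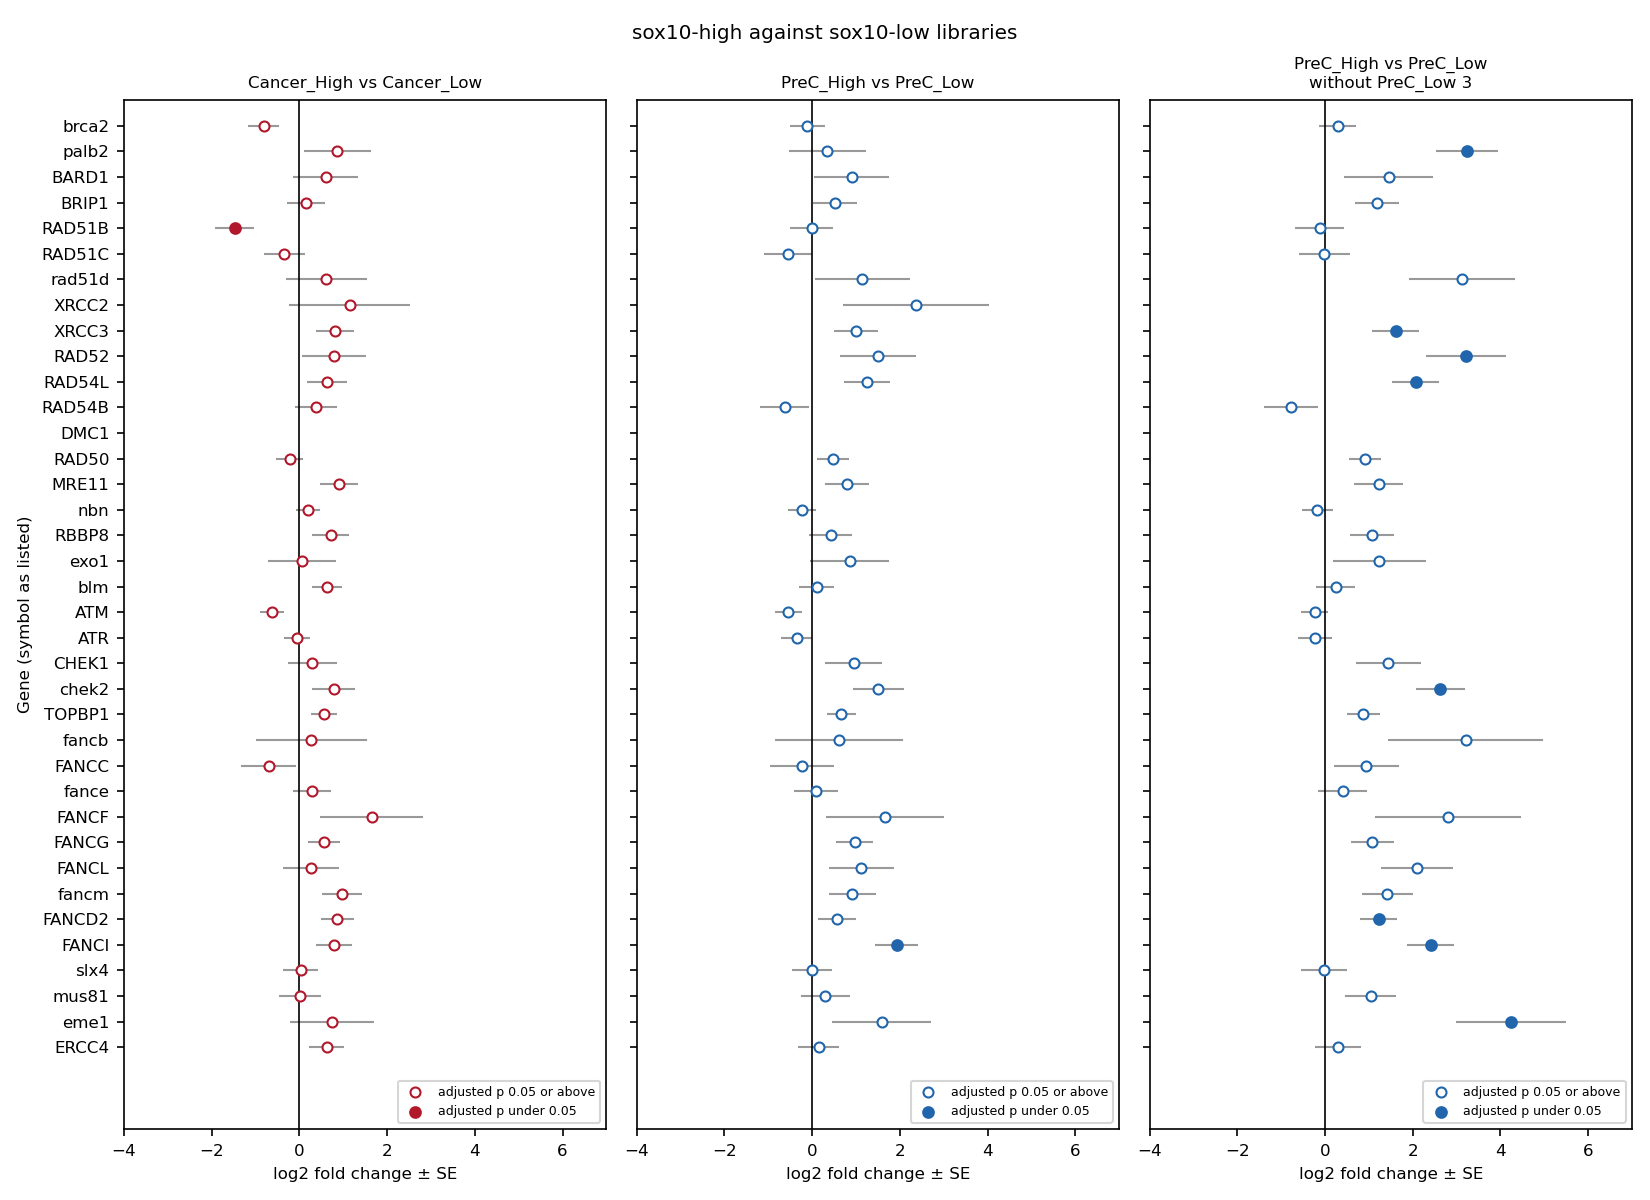
Log2 fold changes ± SE (horizontal axes) of sox10-high against sox10-low libraries, for Cancer (left), PreC (middle) and PreC without PreC_Low 3 (right); filled points passed an adjusted p of 0.05. RAD51B is filled on the left, FANCI in the middle and 8 genes on the right; DMC1 is not drawn, nor is XRCC2 on the right, where its PreC_Low counts are 0.

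The sox10-high cells of tumours were also set against those of precancerous eyes. None of the 37 passed in Cancer_High against PreC_High by edgeR, DESeq2 or limma voom, where 4.91% of all tested genes rose and 5.24% fell by edgeR. DESeq2 called 8.94% of all genes higher and 8.01% lower, and limma voom 4.49% and 4.66%. At an unadjusted p under 0.05, 1 of the 37 was higher, where 15.1% of all tested genes were, and 0 lower, where 9.97% were; the 1 gene was FANCD2 (0.99 ± 0.41, adjusted p = 0.14). The differences were positive for 21 of the 37, with a median of 0.02 against 0.21 over all tested genes. The test of whether the High against Low difference itself changed with stage also called none of the 37 by edgeR, DESeq2 or limma voom, where 2.36% of all tested genes were higher and 1.04% lower by edgeR. DESeq2 called 5.72% of all genes higher and 3.72% lower, and limma voom 3.72% and 1.90%. At an unadjusted p under 0.05, 1 of the 37 was lower, where 6.60% of all tested genes were, and 0 higher, where 11.7% were; the 1 gene was RAD51B (-1.46 ± 0.66, adjusted p = 0.248). brca2 had -0.71 ± 0.53 (adjusted p = 0.536). Without PreC_Low 3, 8 of the 37 were lower at an unadjusted p under 0.05, where 9.11% of all tested genes were, and 0 passed after adjustment.

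The other genes of these pathways were read from a list of 50 matched genes, 49 of them tested. In Cancer_Low against Control_Low 16 rose and 1 fell, where 17.2% of all tested genes rose and 15.5% fell. RPA2, a subunit of the protein that coats bare strands, had 46.1, 55.6, 65.1 and 40.4 CPM in Cancer_Low and 7.25, 7.7 and 12.3 CPM in Control_Low, and rose by 2.51 ± 0.44 (adjusted p = 0.000433). UBE2T, the enzyme that hands ubiquitin to Fancl, had 5.14, 7.96, 10.1 and 9.83 CPM in Cancer_Low and 0.474, 0.718 and 0.934 CPM in Control_Low, and rose by 3.54 ± 0.65 (adjusted p = 0.000592). In both genes the lowest Cancer_Low library exceeded the highest control library by more than the whole range of the controls. rad51ap1, a partner of the recombinase, rose by 3.58 ± 0.70 (adjusted p = 0.00104), FAN1, a nuclease for crosslinks, by 2.44 ± 0.57 (adjusted p = 0.00386), and MCM8, a helicase that aids recombination, by 2.49 ± 0.61 (adjusted p = 0.00538). REV1, a scaffold for polymerases that copy past damage, fell to 14.6, 10.3, 16.1 and 10.5 CPM in Cancer_Low, against 23.3, 24 and 29.2 CPM in Control_Low (-0.99 ± 0.27, adjusted p = 0.00936).

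In PreC_Low against Control_Low 2 of the 49 rose, UBE2T and REV3L, where 0.777% of all tested genes rose. Without PreC_Low 3 none of the 49 did, where 58 of 23812 tested genes rose. UBE2T had 2.28, 1.09 and 11.1 CPM in PreC_Low and 0.474, 0.718 and 0.934 CPM in Control_Low. Its log2 fold change was 2.76 ± 0.64 (adjusted p = 0.0482), and 1.25 ± 0.44 without PreC_Low 3 (adjusted p = 0.263). PreC_Low 3 was thus far above the other PreC_Low libraries, which still lay above the controls. REV3L, the catalytic subunit of a polymerase that works with Rev1, had 142, 108 and 152 CPM in PreC_Low and 36.5, 39.2 and 49.5 CPM in Control_Low, with no overlap (1.68 ± 0.33, adjusted p = 0.0287; 1.59 ± 0.36, adjusted p = 0.0773, without PreC_Low 3). In Cancer_Low it was 47.3, 35.7, 55.1 and 52.2 CPM, and REV3L (-1.50 ± 0.30, adjusted p = 0.00227) and REV1 (-0.97 ± 0.27, adjusted p = 0.0166) were the 2 of 49 that fell in Cancer_Low against PreC_Low, with none rising. Of all tested genes, 7.95% rose and 11.1% fell in that comparison. Without PreC_Low 3, 7 of the 49 rose and 2 fell, where 10.5% of 23812 tested genes rose and 2577 fell.

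Between the sox10 fractions, 10 of the 49 rose and 1 fell in Cancer_High against Cancer_Low. Of all tested genes, 10.5% rose and 17.9% fell there. In PreC_High against PreC_Low 7 of the 49 rose, where 9.28% of all tested genes rose, and 1 fell, where 22.0% fell. Without PreC_Low 3, 18 rose and 1 fell in PreC_High against PreC_Low. There 12.7% of 23812 tested genes rose and 4976 fell. The gene that fell in both was smc6, of a complex that holds damaged chromosomes together: it had 10.01, 2.43, 3.72 and 1.73 CPM in Cancer_High and 54.3, 66, 71.5 and 20.7 CPM in Cancer_Low (-3.57 ± 0.53, adjusted p = 0.000104), and 2.25, 2.6 and 4.96 CPM in PreC_High and 40.3, 40.5 and 56.8 CPM in PreC_Low (-3.81 ± 0.62, adjusted p = 0.000247). Its partner SMC5 had 55.4 to 404 CPM in Cancer_High and 50.6 to 91.7 CPM in Cancer_Low, so that the fractions overlapped. mdc1, which marks chromatin around breaks, rose in Cancer_High over Cancer_Low by 1.70 ± 0.25 (adjusted p = 0.000111) and in PreC_High over PreC_Low by 1.21 ± 0.29 (adjusted p = 0.0046). Likewise rfwd3, a ubiquitin ligase of the Fanconi pathway, rose by 1.44 ± 0.36 (adjusted p = 0.00664) in Cancer and by 1.47 ± 0.41 (adjusted p = 0.0126) in PreC. In Cancer_High against PreC_High 1 of the 49 rose, SMC5 (1.72 ± 0.52, adjusted p = 0.0435), with 404 CPM in Cancer_High 3 and 55.4 to 91.7 CPM in the other Cancer_High libraries. Of all tested genes, 4.91% rose in this comparison.

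For the joining of ends without a template, the other main route of break repair, 15 genes were tested. In Cancer_Low against Control_Low 5 rose, where 17.2% of all tested genes rose, and none fell, where 15.5% fell. They were xrcc1, a scaffold at nicked strands (1.21 ± 0.33, adjusted p = 0.0101), PARP2, an enzyme that flags breaks (1.06 ± 0.30, adjusted p = 0.0119), XRCC6, a subunit of the Ku ring (1.198 ± 0.34, adjusted p = 0.0119), xrcc4, a partner of the ligase (1.27 ± 0.36, adjusted p = 0.0127), and POLQ, the polymerase of joining at short repeats (1.88 ± 0.58, adjusted p = 0.0205). In PreC_Low against Control_Low none of the 15 passed, with or without PreC_Low 3. At an unadjusted p under 0.05, 2 were higher, where 9.91% of all tested genes were. In Cancer_Low against PreC_Low 2 of the 15 fell, where 11.1% of all tested genes fell, and none rose, where 7.95% rose. Without PreC_Low 3, 4 rose, where 10.5% of all tested genes rose, and none fell. In PreC_High against PreC_Low 4 rose, where 9.28% of all tested genes rose, and 1 fell, where 22.0% fell. Without PreC_Low 3, 8 rose, where 12.7% did, and none fell.

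Cell cycle genes were read in the same libraries and comparisons. The summed level of the 37 recombination and Fanconi genes was 351 to 471 CPM in Cancer_High, 271 to 439 in Cancer_Low, 353 to 409 in PreC_High, 215, 238 and 441 in PreC_Low, and 159 to 212 in Control_Low. That of 41 cell cycle genes was 2361 to 3868 CPM in Cancer_High, 1268 to 2247 in Cancer_Low, 2127 to 2606 in PreC_High, 433, 517 and 2639 in PreC_Low, and 336 to 409 in Control_Low. The library with the highest sum in PreC_Low, PreC_Low 3, was the same for both. Of 40 cell cycle genes tested, 32 rose in Cancer_Low over Control_Low, 2 in PreC_Low over Control_Low, 2 in Cancer_Low over PreC_Low, 9 in PreC_High over PreC_Low and 3 in Cancer_High over Cancer_Low, and none fell in these comparisons. Of all tested genes 17.2, 0.777, 7.95, 9.28 and 10.5% rose in the same comparisons, in that order. Without PreC_Low 3 the numbers that rose were 33 in Cancer_Low over Control_Low, 0 in PreC_Low over Control_Low, 29 in Cancer_Low over PreC_Low, 34 in PreC_High over PreC_Low and 17 in Cancer_High over Cancer_Low. Of 23812 tested genes, 4431, 58, 2502, 3023 and 2748 then rose, in the same order. The part of the number of dividing cells in the differences of the 37 genes was not tested.

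**Figure D5:**
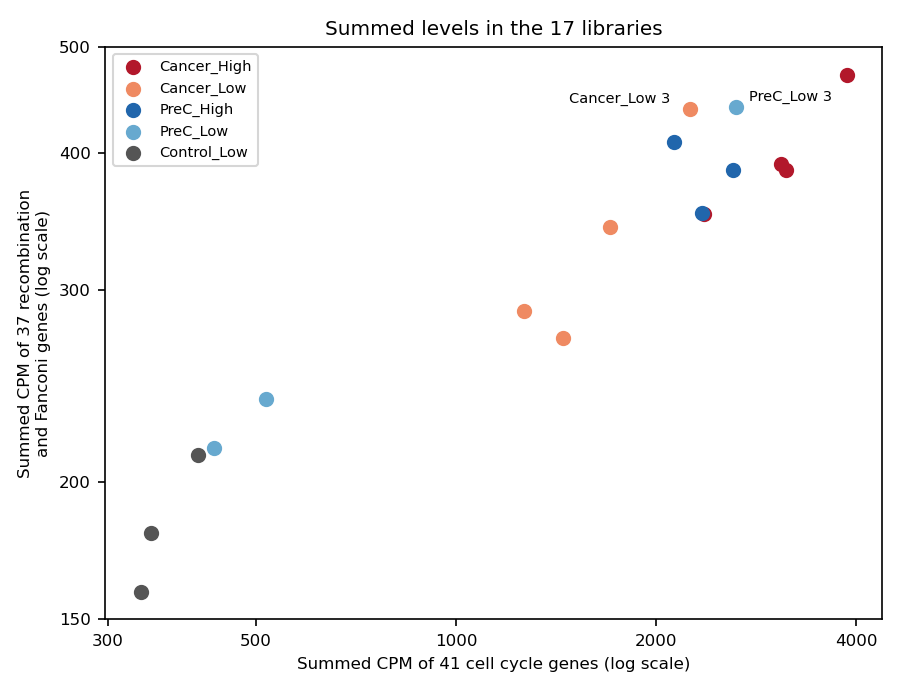
Summed CPM of the 37 recombination and Fanconi genes (vertical axis, log scale) against summed CPM of 41 cell cycle genes (horizontal axis, log scale), 1 point per library, coloured by group. The 3 Control_Low libraries lie lowest on both axes, next to PreC_Low 1 and 2, and PreC_Low 3 lies among the PreC_High and Cancer libraries.

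Markers of other cells differed between the groups as well. Photoreceptor genes (34 matched) summed to 403 to 770 CPM in Cancer_Low, against 31587 to 66035 in PreC_Low and 19784 to 47801 in Control_Low. Of 31 tested, 31 fell in Cancer_Low against Control_Low, where 15.5% of all tested genes fell. Macrophage genes (23 matched) summed to 3994 to 15134 CPM in Cancer_Low, against 3022 to 4697 in PreC_Low and 1641 to 2368 in Control_Low. Of 19 tested, 15 rose and 1 fell (apoc1, an apolipoprotein gene) in Cancer_Low against Control_Low, where 17.2% of all tested genes rose and 15.5% fell. T cell genes (23 matched) summed to 807, 1058 and 5133 CPM in PreC_Low, 336 to 1666 in Cancer_Low and 234 to 353 in Control_Low. Of 23 tested, 6 rose in PreC_Low over Control_Low, where 0.777% of all tested genes rose. None of the 23 rose without PreC_Low 3, which again had the highest sum, where 58 of 23812 tested genes rose. In Cancer_Low over Control_Low 5 of the 23 rose, where 17.2% of all tested genes rose. In the High libraries, macrophage sums were 519 to 1368 CPM in Cancer_High and 306 to 456 in PreC_High. Genes of germ cells, where DMC1 and many of these genes are used in meiosis, summed to 9.83 to 21.0 CPM in Cancer_High and 10.6 to 20.9 in PreC_High. The sums were 4.16 to 8.09 CPM in Cancer_Low, 4.13 to 6.52 in PreC_Low and 2.70 to 5.52 in Control_Low. Of the 17 matched, 8, among them DDX4, were at 0 in every Control_Low library. The number at 0 in every library was 6 in PreC_High, 2 in PreC_Low and 1 in each Cancer group. The part of these cells in the differences of the 37 genes was not tested.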

How the data were processed

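Whole-number counts per gene in 17 libraries were used as deposited by the authors. Per the submitters' processing notes, the authors used FastQC, STAR, HTSeq and DESeq2 with the genome build danRer10; their versions, the strand setting and the annotation were not found in the sources used here. Some genes, and part of the genotype of the mutant fish, are not reported here. Groups and replicate numbers came from the sample titles. A single quasi-likelihood model of 5 groups was fitted in edgeR 4.0.16 (under R 4.3.3), with TMM factors and robust shrinkage. Its filterByExpr step (minimum count 10, minimum total 15) left 23299 genes, and p-values were Benjamini-Hochberg adjusted over all of them, with a call at an adjusted p under 0.05. CPM are on TMM-scaled totals. Library totals of 58711787 to 87244522 counts limit the precision of the scarce genes. Within groups, 21 pairs of libraries correlated at 0.881 to 0.953 and none were identical. The model was tested on simulated data. The simulated libraries were independent, with a fixed spread for all genes and no tissue pairs. They do not show how pairing, or a library that stands apart, bears on the calls.

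Tissue codes pair the High and Low libraries. Deviations from the group means correlated at 0.306 to 0.426 in the 4 Cancer pairs and at -0.00862 to 0.0750 in the 3 PreC pairs. Alternatives were RLE scaling, other filters, DESeq2 1.42.0, limma 3.58.1 voom with the tissue as a random effect, only the compared groups, replicate and tissue blocks, and leaving libraries out. A filter at a mean count of 100 was added after seeing the data. The genes and lists were chosen with earlier results of these data known. Every matched listed gene is named, with full statistics where called, and other pathway genes by smallest adjusted p, up to 6 a comparison.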

Additional observations from a re-analysis of the deposited data

Results flagged for a closer look

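In groups of 4 libraries, a gene was singled out when its highest or lowest library lay apart from the other 3 by more than Dixon's 95% limit for the gap over the range. Of 74 such groups, over 37 genes and both Cancer fractions, 7 were singled out, or 9.46%, where chance gives about 5%. In Cancer_High, 5 of them were library 2. MRE11 had 61.1 CPM there and 11.8 to 19.0 CPM in the other 3 libraries. ATR had 25.6 CPM there against 14.5 to 16.3 CPM, fancb 6.26 CPM against 0.663 to 1.15 CPM, and XRCC2 2.64 CPM against 0.603 to 0.709 CPM. RAD54L was low there, at 10.6 CPM against 15.1 to 15.9 CPM. In Cancer_Low, XRCC3 had 7.25 CPM in library 3 and 4.65 to 4.69 CPM in the others, and ERCC4 had 11.3 CPM in library 4 and 6.53 to 7.18 CPM in the others. ERCC4 was also highest in the sox10-high library of that same tumour, at 22.6 CPM. In the edgeR fit of all libraries with no block, none of these genes was called in any comparison.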

How the results depend on the processing

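The counts of called genes moved with the following settings. In Cancer_Low against Control_Low (10 called) it was 16 with only the compared groups, 15 under DESeq2, 11 under limma voom, 9 with no filter on low counts, 10 with the replicate block and 6 to 13 with 1 library left out. With only the compared groups, 4175 of 21775 tested genes rose there and 4102 fell. In Cancer_Low against PreC_Low (1) it was 0 with no filter on low counts, 2 under DESeq2, 2 with the replicate block, 7 without both PreC_Low 3 and Cancer_Low 4, and 0 to 9 with 1 library left out. In PreC_High against PreC_Low (1) it was 2 with RLE scaling, 5 with a filter at 1 CPM, 4 under DESeq2, 9 under limma voom, 3 with the replicate block, 3 with the tissue as a block, 10 without both libraries, 4 with a mean count of at least 100 and 1 to 9 with 1 left out. Of 23299 tested genes, 2161 rose and 5127 fell there in the fit of all libraries with no block. Without both libraries, 3605 of 23754 tested genes rose and 5101 fell. With a mean count of at least 100, 2889 of 17229 rose and 4102 fell. Calls among all genes moved with the settings too, so these counts alone do not set the family apart. In Cancer_High against Cancer_Low (1) it was 3 under DESeq2, 3 under limma voom, 2 with only the compared groups, 4 without both libraries and 0 to 3 with 1 left out. Without both libraries, 4075 of 23754 tested genes rose in Cancer_High against Cancer_Low and 4497 fell. In PreC_Low against Control_Low (0) it was 4 under DESeq2, 2 under limma voom, 1 with the replicate block and 0 to 0 with 1 left out. Cancer_High against PreC_High and the difference between stages stayed at 0 to 0 with 1 library left out. The share of all tested genes called in either direction ran over the settings from 23.3 to 40.8% in Cancer_Low against Control_Low, up to 27.7% in Cancer_Low against PreC_Low, 23.3 to 42.8% in PreC_High against PreC_Low, 20.3 to 39.4% in Cancer_High against Cancer_Low and 0.210 to 6.39% in PreC_Low against Control_Low. The brca2 difference of PreC_High from PreC_Low, -0.11, turned to 0.09998 with a filter at 1 CPM, 0.035 with only the compared groups, 0.054 with a mean count of at least 100, 0.33 without both libraries, 0.08 without PreC_High 2 and 0.29 without PreC_Low 3, and ran from -0.40 to 0.29 with 1 library left out; the cause was not tested. The call of mus81 was also lost with no filter, under limma voom and with the replicate block. RLE scaling moved the median difference of all genes from 0.09 to -0.02 in PreC_Low against Control_Low, and from 0.17 to 0.04 in the difference between stages. Scarce genes such as XRCC2, fancb, FANCF and DMC1 are limited by their few counts.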
